A study of Homo sapiens with 4 samples.

Results

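The course of gene expression after knockdown of adenomatous polyposis coli (APC) was followed in 2 of the 4 single-cell RNA sequencing (scRNA-seq) libraries of the series, one harvested 3 days and one 7 days after transduction of an shRNA against APC (shAPC). Barcodes with at least 200 detected genes, at least 500 UMIs (distinct captured mRNA molecules) and less than 5% of UMIs from mitochondrially encoded genes were kept as cells, which left 788 cells at day 3 and 1478 at day 7, or 2266 of 5982 kept cells in all. The other two libraries carried a scrambled shRNA (shScr) and were harvested on the same days, with 1116 and 2600 kept cells. All 4 were made from HCEC 1CT, a line of epithelial cells from human colon that TERT and CDK4 keep dividing, so that the controls share these transgenes, the virus and the puromycin selection. The labels call the virus retroviral and the methods lentiviral, and the kit is 10x v2 in the labels and the study's library statistics but V3 in its methods. The shRNA is 1 hairpin in 1 line, each group holds 1 library, and no test between groups was possible. Intervals below therefore cover counting error only, and the variation between cultures is unknown.

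For each gene, the UMIs of all kept cells in a library were added up and divided by the library's total, as counts per 1000000 (CPM). The log2 ratio of day 7 over day 3 was taken and the median over the 5176 genes of at least 20 CPM in either shAPC library was subtracted, which gives the relative log2 ratio used throughout. The same was done for shScr over the same genes. A gene that reached 20 CPM at day 3 alone entered through the library where it was high. Counts of lower genes in a list that holds such genes are therefore no independent support. The median before subtraction was -0.34 in shAPC and 0.04 in shScr, so that a plain CPM ratio in shAPC is lower than the relative one by that amount. A change of at least 2-fold in shAPC was called not shown by the controls where the relative log2 ratio of shScr in the same direction was under 0.5. In sums over a library, fewer cells that express a gene and less of its RNA per cell cannot be told apart. Values per cell are given where they bear on this.

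APC is a scaffold of the complex that marks beta-catenin for destruction. When it is lost, beta-catenin enters the nucleus with TCF factors and switches on Wnt targets, among them feedback inhibitors such as AXIN2. Loss of APC is the usual first step of colorectal tumours. Independently of Wnt, cells that sense viral or misplaced nucleic acid secrete interferon beta, whose receptor acts through JAK kinases on genes with an interferon-stimulated response element. Under stress of the endoplasmic reticulum, amino acid shortage or double-stranded RNA, the factors ATF4, ATF3 and CHOP (the DDIT3 product) drive a different set.

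The libraries differed in depth and quality. Kept cells held between 28451455 and 39797418 UMIs per library, and the median per cell was 49686 at shAPC day 3, 21030 at shAPC day 7, 35109 at shScr day 3 and 1330 at shScr day 7. The limits on genes, UMIs and mitochondrial share removed 51.3% of the barcodes at shAPC day 7, while in the remaining libraries the share was 24.1% to 28.8%. Ribosomal protein genes held 28.3% of the UMIs at shAPC day 3, 35.2% at day 7 and 33.0% in each shScr library. The kept cells of shAPC day 3 and shScr day 3 shared 19 barcodes, and those of shAPC day 3 and day 7 shared 1. Per the file headers the counts were written by Cell Ranger 3.0.0 for shAPC and 3.0.2 for shScr. By the headers the version does not change within a course but cannot be told apart from the shRNA. The labels give 3.0.2 for every library and the study's methods 3.0.0, and this conflict was not resolved.

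The label of an epithelial line was met in part by the markers. Of 11 epithelial markers only KRT7 and TJP1 reached 20 CPM in shAPC, the summed level of the list was 169 CPM at day 3 and 134 at day 7, and CDH1 (E-cadherin) and EPCAM had at most 2 UMIs in any of the 4 libraries. Of 10 mesenchymal markers 7 reached 20 CPM, led by VIM at 4968 and 4019 CPM. The 9 markers of differentiated colon summed to at most 0.0286 CPM and the 5 endothelial ones to at most 0.429. Of the 10 blood and immune markers only CD68 was above 20 CPM, and the list summed to 31.2 CPM at day 3 and 23.5 at day 7.

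APC itself was low at both times. Its level was 5.52 CPM at shAPC day 3 and 6.61 at day 7, against 16.1 and 19.1 CPM in shScr, and neither shAPC interval reached those of shScr. The relative log2 ratio of APC between the shAPC libraries was 0.60 (95% interval 0.31 to 0.90) and that of shScr was 0.21. After each cell was thinned to 5000 UMIs, an APC UMI was seen in 18 of 616 cells at day 3 (2.92%) and 35 of 994 at day 7 (3.52%), with intervals that overlap. Without thinning the shares were 18.3% and 11.1%, at the unequal depths given above. The difference in APC level between the days was thus smaller than that between shAPC and shScr on either day.

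Of 5176 genes, 5003 (96.7%) stayed within 2-fold between day 3 and day 7 of APC knockdown. More genes were lower than higher at day 7. At least 2-fold lower were 137 genes, 2.65% of those measured, and 36 genes, 0.696%, were at least 2-fold higher. In shScr the same rule gave 48 lower (0.927%) and 18 higher (0.348%). Of the 137 lower genes the controls showed 19 in full and 20 in part, while 98 were not shown, 1.89% of the genes measured. Of the 36 higher genes the controls showed 3 in full and 12 in part, and 21 were not shown, 0.406%. The limit of 2-fold cut through a continuum. Just inside it lay HNRNPM at -1.0, LARP7 at -1.01, ISCU at 1.00 and MEG3 at 1.01, and just outside it TXNIP at -1.0, C19orf66 at -1.0 and HACD4 at 1.00.

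**Figure D1:**
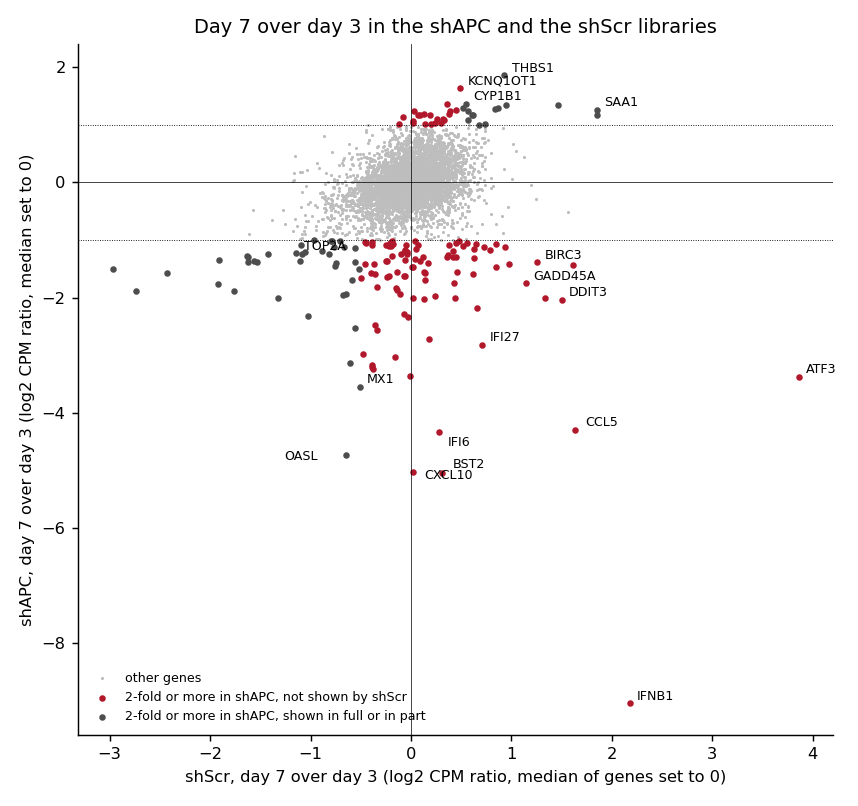
Relative log2 CPM ratio of day 7 over day 3 in shAPC (vertical axis) against shScr (horizontal axis), 1 point per gene of at least 20 CPM. Red points are changes of at least 2-fold in shAPC that shScr does not show, dark grey points those it shows in full or in part, and the downward spread (IFNB1 at -9.05, IFI6 at -4.33) is far longer than the upward one (THBS1 at 1.86). The horizontal position of IFNB1 rests on a floor of 3 counts at shScr day 3.

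The lower genes were led by the interferon response. Of the 137, 32 belong to 5 lists of interferon and antigen presentation genes, and 27 of these 32 were not shown by the controls. None of the 36 higher genes was in these lists, which held 3, 8, 8, 17 and 10 of the 5176 measured genes. At so small a share, the absence of higher genes from them says little. Among 22 interferon-stimulated effectors, 17 reached 20 CPM. Of these, 14 were at least 2-fold lower, 3 were within 2-fold and none was higher, where 2.65% of all measured genes were lower. Some, such as BST2, MX1 and IFIT1, reached 20 CPM at shAPC day 3 alone. The list was also chosen with earlier results known, so the share is no independent support. The median relative log2 ratio of the 17 effectors was -2.72 in shAPC and -0.34 in shScr, against 0 over all genes by construction. Over the alternatives of scaling, filter and cell selection the shAPC median ranged from -3.07 to -2.36.

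The promoters of 3 of these effectors are shown because their response element lies in the bases before the start. The sequences are from RefSeq, build GRCh38.p14, are written 5' to 3' along the gene and end at the base before the start. Capitals mark GAAA, 2 further bases and GAAA, the core of the interferon-stimulated response element, on either strand, and overlapping matches are joined. ISG15 lies at chr1:1013247-1013496 on the plus strand, IFI6 at chr1:27672193-27672442 on the minus strand and IFIT1 at chr10:89392373-89392622 on the plus strand, where the capitals are the reverse complement.
ISG15: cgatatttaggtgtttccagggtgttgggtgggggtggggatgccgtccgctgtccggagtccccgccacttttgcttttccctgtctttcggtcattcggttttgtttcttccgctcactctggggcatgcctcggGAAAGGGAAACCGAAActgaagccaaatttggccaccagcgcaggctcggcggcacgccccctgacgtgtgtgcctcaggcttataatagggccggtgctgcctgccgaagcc
IFI6: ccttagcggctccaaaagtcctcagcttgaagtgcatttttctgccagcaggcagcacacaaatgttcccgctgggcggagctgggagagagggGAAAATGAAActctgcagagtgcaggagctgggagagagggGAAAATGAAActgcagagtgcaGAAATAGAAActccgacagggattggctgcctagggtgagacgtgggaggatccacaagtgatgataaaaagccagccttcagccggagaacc
IFIT1: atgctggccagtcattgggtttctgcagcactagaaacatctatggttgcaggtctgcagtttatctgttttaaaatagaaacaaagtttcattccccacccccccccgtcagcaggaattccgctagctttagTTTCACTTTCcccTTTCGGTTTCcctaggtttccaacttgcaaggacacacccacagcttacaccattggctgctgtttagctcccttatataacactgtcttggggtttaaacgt
This pattern was present in the window from 250 bases before to 50 after a listed start in 17 of the 19 effectors that the table holds (89.5%) and in 1195 of 27305 genes in all (4.38%). Among the 137 lower genes 107 were in the table and 27 of them had it (25.2%). Of the 36 higher genes 24 were in the table and 0 had it. Since 171 of 4230 genes of at least 20 CPM had it (4.04%), 0 of 24 says little. A match describes the letters only. It was not tested whether a factor bound there.

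Interferon beta and the chemokines made with it were nearly absent at day 7. IFNB1, which encodes interferon beta (chr9:21077104-21077942 on the minus strand in GENCODE 44, GRCh38), had 829 UMIs at shAPC day 3, or 23.7 CPM, and 1 UMI at day 7, with 0 and 11 UMIs in the shScr libraries. Its relative log2 ratio was -9.05, with a counting interval from -14.36 to -6.57 because it rests on 1 UMI. The UMIs of day 3 came from few cells, 16 of 788 (2.03%), and at day 7 from 1 of 1478 (0.0677%). CXCL10, a chemokine that draws T cells, was at 32.1 CPM and then 0.773, while shScr held 2.34 and 2.43. CCL5, a further chemokine, went from 56.1 to 2.25 CPM and was seen in 142 of the 788 cells at day 3 and 21 of the 1478 at day 7. In shScr it moved the other way, from 1.43 to 4.55 CPM. CXCL11 was lower by 2.33 on the relative log2 scale but had only 9.90 CPM at day 3 and so was not among the counted genes. Of the 8 members of this list only IFNB1, CXCL10 and CCL5 reached 20 CPM, all 3 through shAPC day 3 alone. That all 3 were lower thus follows in part from the limit and is no separate support. None of the 3 changes was shown by the controls, where these genes were at 4.55 CPM or less. The type III interferons IFNL1, IFNL2 and IFNL3 had at most 1 UMI in a shAPC library.

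Sensors of double-stranded RNA were high at day 3 of knockdown. IFIH1, which encodes the sensor MDA5, was at 27.4 CPM and then 2.35, against 4.90 and 3.84 in shScr. OAS1, which makes the messenger that activates RNase L, was at 36.2 and 2.78 CPM, against 5.80 and 5.92. OASL went from 54.5 to 1.62 CPM, and shScr showed part of this, from 4.40 to 2.88. In IFIH1, OAS1 and OASL the shAPC level at day 3 was the highest of the 4 libraries and that at day 7 the lowest. Of 8 measured sensors and OAS genes 6 were at least 2-fold lower, 5 of them not shown by shScr, with a list median of -2.68 in shAPC and -0.14 in shScr. The other two, EIF2AK2 (the kinase PKR) and ADAR (which edits double-stranded RNA), were at -0.62 and -0.50. The list median was -0.59 when only genes of at least 100 CPM were taken, since fewer of its members then remained.

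In interferon signalling the factors made in response were lower, while the constant parts were near the median. IRF7 was at 43.5 CPM and then 6.15, with 11.1 and 8.93 in shScr, and IRF1 at 56.4 and 9.81, with 9.85 and 16. USP18, which shuts off the receptor, had a relative log2 ratio of -2.57. The receptor chain IFNAR1 was at 0.01, IRF3 at -0.10 and the kinase JAK1 at 0.53. Of 8 measured members 3 were lower, none higher and 5 within 2-fold, with a median of -0.68.

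The effectors gave the deepest counts. ISG15, a ubiquitin-like modifier, was at 1199 CPM at shAPC day 3 and 143 at day 7, against 268 and 313 in shScr. Its relative log2 ratio was -2.72 (-2.77 to -2.68) in shAPC and 0.18 in shScr. IFI6 was at 825 and 32.3 CPM, against 84.9 and 106, a relative change of 20.1-fold. IFI27 was at 884 and 98.8 CPM, against 177 and 297. All 3 were the highest of the 4 libraries at shAPC day 3 and the lowest at shAPC day 7. IFIT1, which binds foreign RNA caps, was at 200.2 and 17.5 CPM, against 41.3 and 32.5. MX1, a GTPase that blocks influenza viruses, was at 109 and 7.35 CPM. The controls showed part of the MX1 change, from 15 to 10.8. BST2 (tetherin) had the lowest ratio of the effectors, -5.05 (-5.93 to -4.29), but only 14 UMIs at day 7. Of the 14 lower effectors shScr showed none in full and 4 in part (MX1, MX2, IFI44L and PARP9). The 3 within 2-fold were IFIT5 at -0.61, IFITM2 at -0.76 and SAMD9 at -0.90.

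Antigen presentation genes moved less but in the same direction. HLA-B was at 290.2 CPM at day 3 and 76.2 at day 7, against 88.6 and 100.5 in shScr, a relative log2 ratio of -1.58 (-1.65 to -1.52). B2M, the light chain of MHC class I, was at 1157 and 433 CPM, against 525 and 846, so that shScr had the opposite sign (0.65) short of 2-fold. Of 10 measured genes 6 were at least 2-fold lower and none of these was shown by shScr. TAPBP, which loads peptides, was the nearest to shScr, at -0.39 and -0.48. HLA genes share sequence, so that reads could be split between them.

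**Figure D2:**
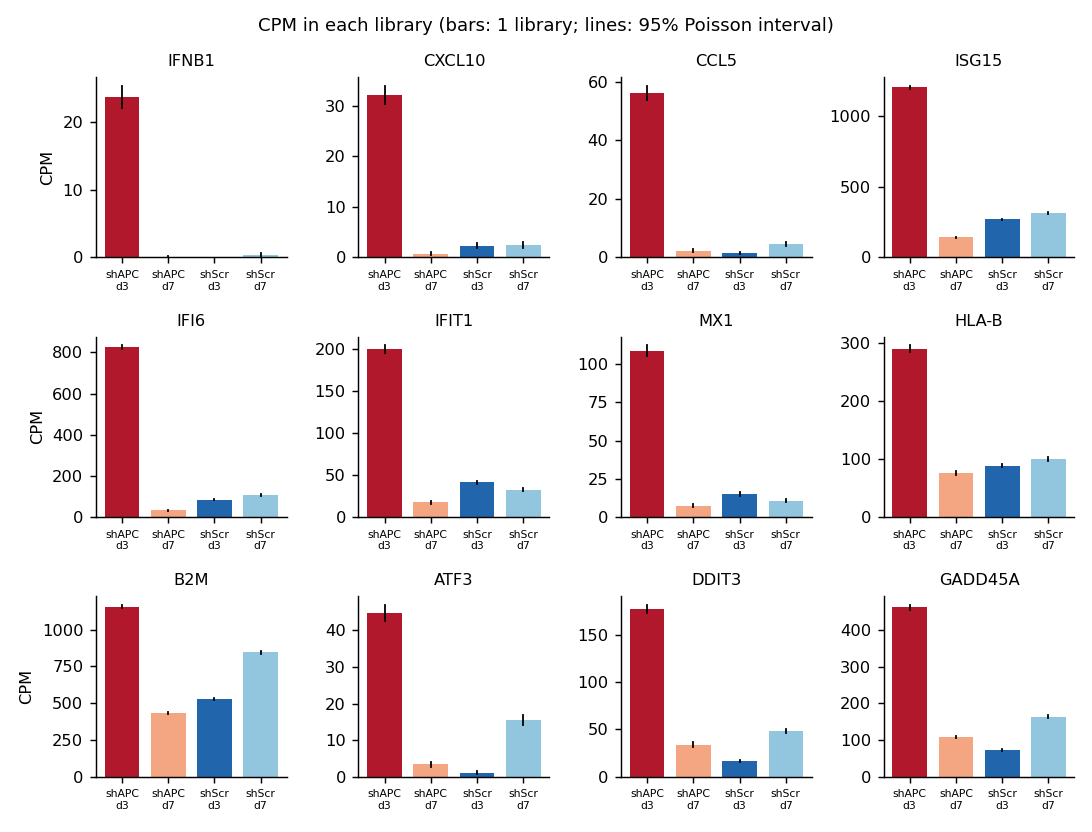
CPM of 12 genes in the 4 libraries, 1 bar per library with its 95% Poisson interval, which covers counting error only. In all 12 the shAPC day 3 bar is the highest. At shAPC day 7 IFI6 is at 32.3 CPM, below both shScr libraries, while ATF3 at 3.37 CPM lies between the 1.03 of shScr day 3 and the 15.4 of shScr day 7.

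The interferon response at shAPC day 3 was spread over most cells. With each cell thinned to 5000 UMIs, which left out 172 shallower cells at day 3 and 484 at day 7, the median cell held 23 effector UMIs at day 3 (10th to 90th percentile 11 to 52) and 4 at day 7 (1 to 10). In shScr the medians were 8 and 7, over 809 cells at day 3 and 1036 at day 7. Thinning left out 307 shScr cells at day 3 and 1564 at day 7, so the shScr values per thinned cell describe the deeper cells only. Taking the 90th percentile of shScr day 3, 18 UMIs, as a limit, 409 of 616 cells (66.4%, 62.5% to 70.1%) were above it at shAPC day 3 and 22 of 994 (2.21%, 1.39% to 3.33%) at day 7. In shScr day 7 the share was 9.56%, so that shAPC day 7 lay below both controls. Without thinning, per 5000 UMIs of the cell, the shAPC medians were 24.3 and 4.57. An IFI6 UMI was seen in 557 of 616 thinned cells (90.4%) and then in 130 of 994 (13.1%), against 28.3% and 31.1% in shScr. The unthinned shares of IFI6 were 92.6% and 31.2%. No cell type that should lack these genes was in the libraries, so the share that free RNA adds was not measured.

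**Figure D3:**
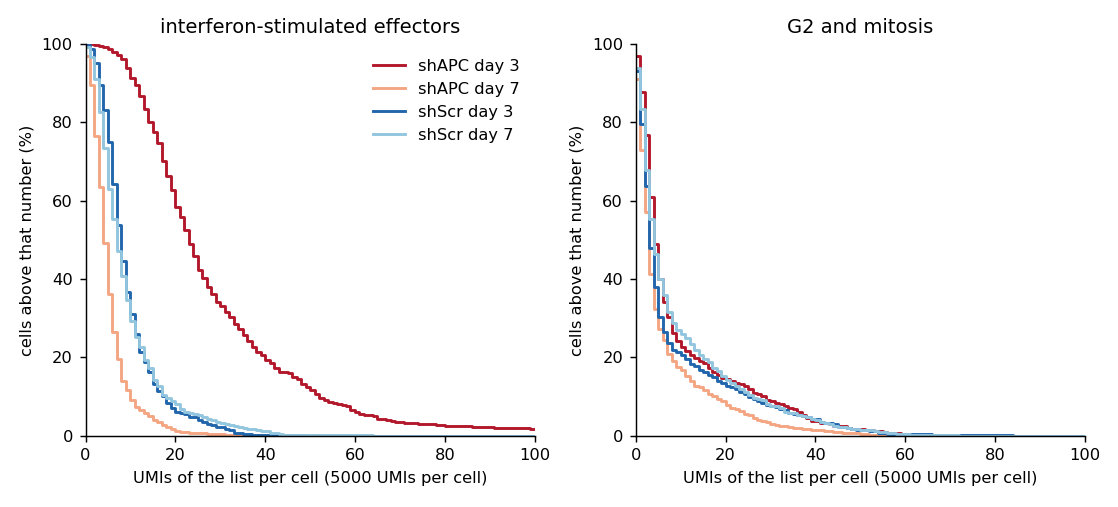
Share of cells (vertical axis, in %) with more than a given number of UMIs of a list (horizontal axis), 1 line per library. Every cell was thinned to 5000 UMIs and shallower cells were left out. For interferon-stimulated effectors the whole shAPC day 3 line lies to the right, with 66.4% of cells above 18 UMIs against 2.21% at shAPC day 7. For G2 and mitosis genes the shAPC day 7 line is the lowest over most of the range, with 5.23% of cells above 25 UMIs against 11.9% at shAPC day 3.

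Stress genes were lower at day 7 too, some of them with the opposite sign in shScr. ATF3, a stress-induced repressor, was at 44.7 CPM at shAPC day 3 and 3.37 at day 7, whereas shScr went from 1.03 to 15.4. DDIT3 was at 178 and 34 CPM, against 16.6 and 48.3. GADD45A, which acts in growth arrest and DNA repair, was at 462 and 108 CPM, against 71.8 and 163. All 3 were the highest at shAPC day 3, and each was higher at day 7 than at day 3 in shScr by more than 2-fold, with relative log2 ratios of 3.86, 1.5 and 1.15. TRIB3, a pseudokinase induced by CHOP, was at 67.9 and 17.8 CPM, against 16.6 and 13.4. PPP1R15A, which restores translation after stress, was at 133 and 42.9 CPM, against 44.9 and 61.6. Of 15 measured ATF4 and CHOP genes 6 were at least 2-fold lower, 9 within 2-fold and none higher, with none of the 6 shown by shScr. The list median was -0.86 in shAPC and -0.19 in shScr. ATF4 itself was at -0.08, and the serine and folate enzymes of the list lay near the median too, with PHGDH at -0.16, PSAT1 at -0.05, SHMT2 at -0.16 and MTHFD2 at 0.13.

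The UMIs of the stress genes were concentrated in part of the cells. An ATF3 UMI was seen in 40 of 616 thinned cells at shAPC day 3 (6.49%) and 13 of 994 at day 7 (1.31%), and without thinning in 16.5% and 2.98%. DDIT3 was seen more widely, in 19.8% and 9.76% of thinned cells and, without thinning, in 50.3% and 24.6%. GADD45A was seen in 40.4% and 27.6% of thinned cells and, without thinning, in 76.9% and 52.6%. In shScr, too, the rise of ATF3 and DDIT3 was carried by a small share of cells. Thinned shScr cells showed ATF3 in 0.371% at day 3 and 1.25% at day 7, DDIT3 in 7.05% and 8.3% and GADD45A in 29.0% and 33.5%. Without thinning, the 481 ATF3 UMIs of shScr day 7 lay in 72 of 2600 cells. The 10% of thinned cells with the most DDIT3 held 84.7% of its UMIs at day 3, and the same measure was 45.8% for ISG15 and 30.5% for IFI6. The 40 cells with an ATF3 UMI had a median of 23 UMIs of the ATF4 and CHOP list, with ATF3 itself not counted, against 6 in the 576 without. They also had a median of 48 effector UMIs against 22.

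When all cells with an IFNB1 or ATF3 UMI were left out of every library, a choice made after seeing the data, 136 of 788 cells were removed at shAPC day 3 and 44 of 1478 at day 7. Since ATF3 is a stress gene itself, this choice removes the cells highest in genes found with it, and the smaller ratios of stress genes follow in part from the choice. The relative log2 ratio of DDIT3 was then -0.41, that of GADD45A -0.44, that of TRIB3 -0.61 and that of PPP1R15A -0.54, all within 2-fold. In the same cells IFI6 was at -4.36, ISG15 at -2.38, IFIT1 at -3.21 and HLA-B at -1.46. The list medians were -0.05 for ATF4 and CHOP genes and -2.38 for the effectors. Over all genes 84 were then lower and 50 of these not shown by shScr, in place of 137 and 98. The removed cells were deeper, with a median of 63524 UMIs against 47032 in the rest at shAPC day 3.

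CHAC1, which degrades glutathione and is a target of ATF4 and CHOP, is shown because it alone of the 14 genes of this list in the table had the composite site TGAT directly followed by GCAA on either strand, in capitals below. CHAC1 was at 27.0 CPM at shAPC day 3 and 10.1 at day 7, against 8.90 and 11.9 in shScr. Its window lies at chr15:40953221-40953470 on the plus strand, and the match is on the other strand.
CHAC1: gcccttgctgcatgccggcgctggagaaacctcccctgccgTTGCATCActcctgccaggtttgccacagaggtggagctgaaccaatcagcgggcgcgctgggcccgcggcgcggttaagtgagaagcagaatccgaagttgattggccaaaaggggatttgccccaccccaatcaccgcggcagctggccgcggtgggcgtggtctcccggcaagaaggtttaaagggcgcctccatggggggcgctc
Among all 27305 genes with a listed promoter 295 had this site (1.08%). SLC3A2, the shared chain of several amino acid transporters, was at 247 and 49.6 CPM, against 51.4 and 62.4, and it was the only called gene of 7 measured transporters. Aminoacyl-tRNA synthetases had 18 of 20 measured genes below 0 in shAPC and 19 of 20 in shScr, with medians of -0.40 and -0.39, and none was called.

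NF-kB drives inflammatory and survival genes. Of its 15 measured genes 14 were below 0 in shAPC and 11 above 0 in shScr. At day 7 of knockdown 6 were at least 2-fold lower and none of them was shown by shScr. The list median was -0.88 in shAPC and 0.27 in shScr, and in all 15 the shAPC ratio was below that of shScr. BIRC3, an inhibitor of apoptosis, was at 47.8 CPM and then 14.4, against 19.9 and 48.9. NFKB2 was at 30.0 and 7.70 CPM, against 9.1 and 9.0, and the adhesion molecule ICAM1 at 62.2 and 16.7, against 33.1 and 37.2. CXCL8 and CXCL1, the most abundant chemokines of the list, stayed near the median at -0.11 and 0.17. Without the cells with an IFNB1 or ATF3 UMI the list median was -0.39.

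**Figure D4:**
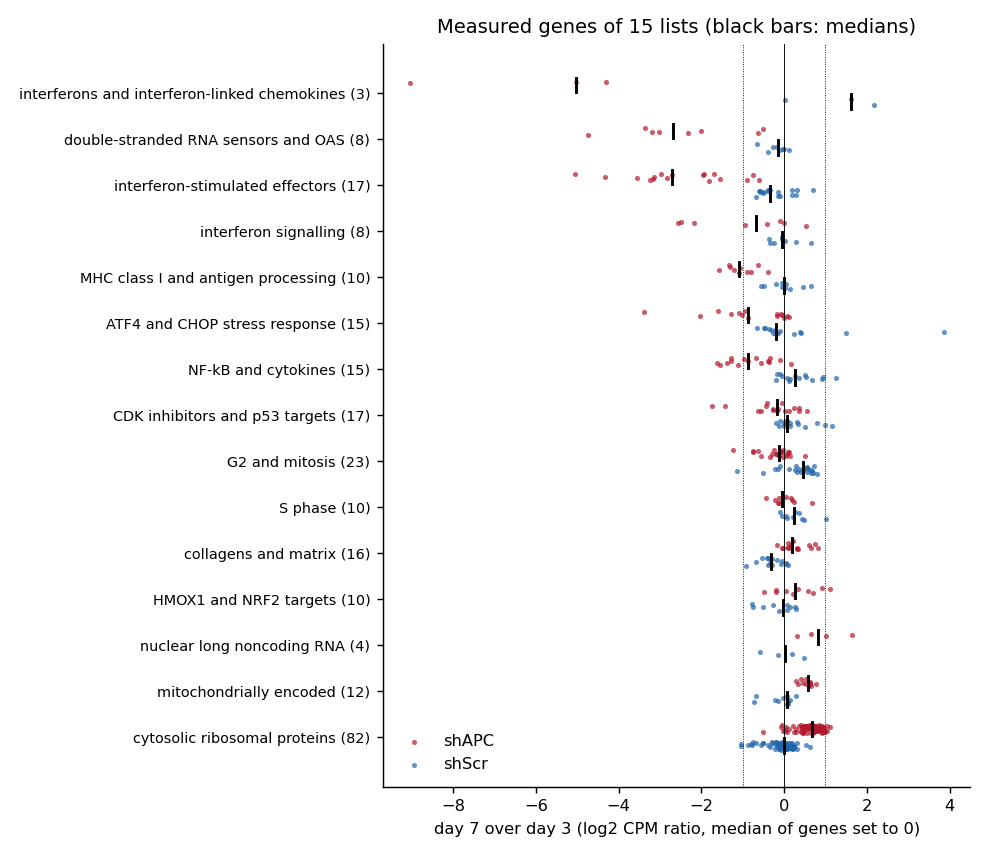
Relative log2 ratio of day 7 over day 3 for the measured genes of 15 lists (number in brackets), in shAPC (red) and shScr (blue), with medians as black bars and dotted lines at 2-fold. The effector list has a median of -2.72 in shAPC and -0.34 in shScr, whereas collagens (0.19 and -0.33) and ribosomal proteins lie above 0 in shAPC.

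Of the Wnt targets and feedback genes, only 3 of 16 reached 20 CPM and none of them was called. CCND1 was at 459.6 and 456 CPM, against 395 and 446 in shScr, MYC at 67.2 and 46.1, against 53 and 54.5, and DKK1 at 91.7 and 124, against 117 and 200.3. The relative log2 ratio of DKK1 was 0.78 in shAPC and 0.73 in shScr, a difference of 0.05 (-0.03 to 0.14). For CCND1 it was 0.33 and for MYC -0.20, but CCND1 was at -0.01 as a plain CPM ratio.

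The other 13 members were below 20 CPM and so outside the counted genes, and their ratios had either sign. AXIN2 had 57 UMIs at shAPC day 3 and 117 at day 7, or 1.63 and 4.11 CPM, and 14 and 4 UMIs in shScr. Its relative log2 ratio was 1.68 (1.21 to 2.16), and the difference from shScr was 3.18 (1.51 to 4.84). NKD1, an inhibitor of Dishevelled, had 12 and 59 UMIs, against 1 and 7, with a ratio of 2.94 (2.03 to 3.97). APCDD1, an inhibitor at the cell surface, had 1 and 47 UMIs, against 4 and 3, with a ratio of 6.2 (3.65 to 11.53). All 3 were most abundant at shAPC day 7. For NKD1 the ratio in shScr was 3.12, on 1 UMI at day 3, so the difference of -0.18 has an interval from -3.33 to 2.97. LEF1 had 14 and 34 UMIs, with ratios of 1.92 in shAPC and 1.59 in shScr. ZNRF3 was at 0.20, TCF7 at 0.54 and TNFRSF19 at 0.30. Negative ratios on few UMIs were those of ASCL2 with 17 and 7 UMIs (-0.64, -2.15 to 0.70) and NOTUM, a secreted inhibitor, with 4 and 1 (-1.36, -6.98 to 1.98), and both intervals include 0. LGR5 and SP5 had 0 UMIs in both shAPC libraries, and RNF43 had 1 in each.

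BAMBI, a decoy receptor for TGF-beta and a Wnt target, went the other way, with 317 UMIs at shAPC day 3 and 89 at day 7 and with 77 and 191 in shScr. Its ratio of -1.19 became 0.40 without the cells with an IFNB1 or ATF3 UMI. In thinned cells AXIN2 was seen in 6 of 616 (0.974%) and 23 of 994 (2.31%) and NKD1 in 0 of 616, where 3 cells would be a share of 0.487%, and 12 of 994 (1.21%). Without thinning the AXIN2 shares were 6.6% and 6.63%, and those of NKD1 were 1.4% (11 of 788 cells) and 2.77% (41 of 1478). These levels are near that of 1 UMI, so no change per cell is read from them. Of the destruction complex CTNNB1 (beta-catenin) was at -0.10, GSK3A at -0.09 and CSNK1A1 at -0.11, the 3 members that were measured at 20 CPM.

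**Figure D5:**
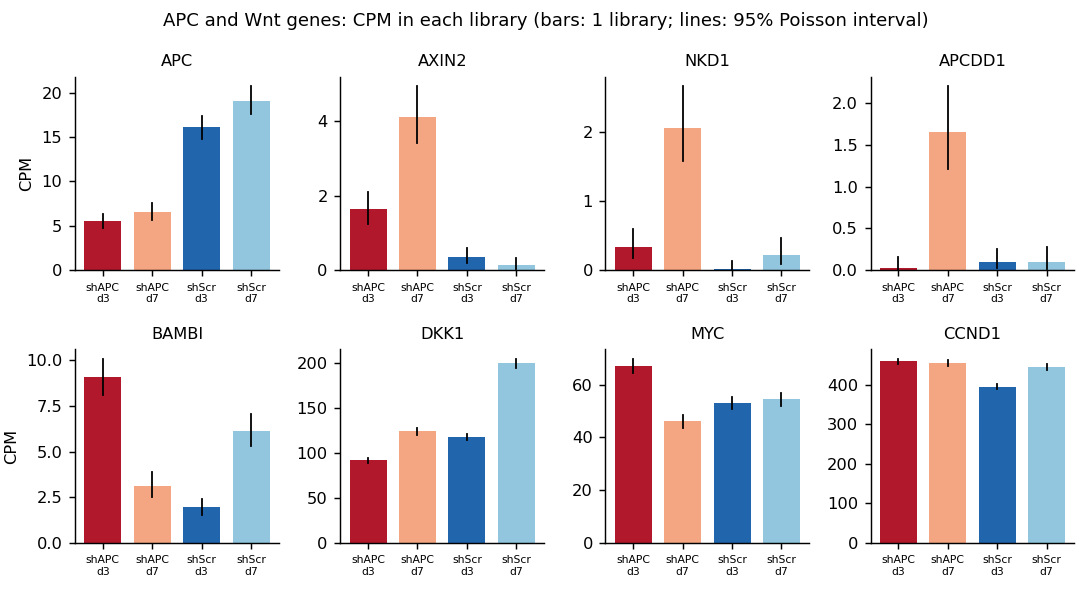
CPM of APC and 7 Wnt genes in the 4 libraries, 1 bar per library with its 95% Poisson interval. APC is at 5.52 and 6.61 CPM in shAPC against 16.1 and 19.1 in shScr, AXIN2, NKD1 and APCDD1 are highest at shAPC day 7, while MYC lies between 46.1 and 67.2 CPM and CCND1 between 395 and 459.6.

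The 36 higher genes fell into no single list. THBS1, a matrix glycoprotein that activates TGF-beta, had the highest ratio, 1.86 (1.67 to 2.05), at 9.41 and 27.0 CPM, and shScr showed part of it, at 34.8 and 68.0. KCNQ1OT1, a long noncoding RNA of an imprinted locus, was at 23.4 and 57.4 CPM, against 19.0 and 27.5, and counts as not shown with a shScr ratio of 0.49. CYP1B1, an aryl hydrocarbon receptor target, was at 326 and 662 CPM, against 225 and 339. SUGCT, a mitochondrial transferase, was at 30.0 and 55.7 CPM, against 30.1 and 31.5. The transcription factors SOX4 and PITX1 were at 28.5 and 49.2 CPM and at 138 and 244, with shScr ratios of -0.08 and 0.07. CCND2 (cyclin D2) was at 28.6 and 45.4 CPM, against 16.5 and 18.7. CCND2 sat at the limit with 1.01 and was at 0.47 when each cell was weighted equally. SAA1, an acute phase protein, was higher in both courses, at 44.7 and 84.1 CPM in shAPC and 121 and 447 in shScr, as were CRYAB and MMP3.

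Higher calls depended on the scaling. Of the 36, 6 stayed at least 2-fold higher as a plain CPM ratio, and 1 of these, MARCKSL1, was not shown by shScr. MARCKSL1 was at 14.2 CPM at shAPC day 3 and 28.7 at day 7, against 9.15 and 12.1 in shScr. KCNQ1OT1 had plain log2 ratios of 1.29 in shAPC and 0.53 in shScr, and so was shown in part on that scale. The plain ratio gave 335 lower genes and 255 not shown. Higher genes made up 20.8% of the calls with the median subtracted and 1.76% without. Ribosomal protein genes had 78 of 82 measured members above 0, a median of 0.68 in shAPC and 0.33 as a plain ratio, and 3 were called (RPLP0, RPL34 and RPL7). In 80 of the 82 the shAPC ratio was above that of shScr, in which 43 were above 0. The 12 measured mitochondrially encoded genes were all above 0, with a median of 0.57, and 1551 of the shAPC day 7 barcodes had been removed by the limit on these same genes. The median was 0.76 with no mitochondrial limit, 0.75 with a limit of 10% and 0.22 as a plain CPM ratio.

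Ferritin transcripts are among the most abundant, and FTL was called. Of the 4 nuclear long noncoding RNAs KCNQ1OT1 and MEG3 were called, at 23.4 and 286 CPM at shAPC day 3. FTL, the light chain of ferritin, was at 15190 CPM and then 25798, against 16290 and 20104 in shScr, a ratio of 1.11 that was 0.76 as a plain ratio. FTH1, the heavy chain, was at 0.92. HMOX1, which frees iron from haem, was lower in both courses, at -0.49 and -0.76. In thinned cells 29.8% of shAPC day 7 cells were above the shScr day 3 limit of 338 UMIs for HMOX1 and NRF2 targets, against 8.12% at shAPC day 3 and 19.8% at shScr day 7. That sum is mostly ferritin, with FTH1 at 21714 and FTL at 15190 of 37610 CPM at shAPC day 3, and so adds little on the other members. All 4 nuclear long noncoding RNAs were above 0, but NEAT1 was at -0.03 as a plain CPM ratio. MALAT1 was at 0.64 in shAPC and -0.14 in shScr, NEAT1 at 0.32 and -0.59 and MEG3 at 1.01 and 0.20.

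Collagens and matrix genes differed between the courses without any call. Of 16 measured genes 13 were above 0 in shAPC and 13 below 0 in shScr, with medians of 0.19 and -0.33, and the shAPC ratio was the higher one in 15. As a plain CPM ratio the shAPC median was -0.16. COL1A2 was at 802 CPM and then 1118, against 627 and 492, and COL3A1 at 66.5 and 87.6, against 45.3 and 34.9. COL1A1 was nearly level in shAPC at 1519 and 1485 CPM, whereas shScr went from 1444 to 927. Of the YAP targets CTGF was called at 1.01 and shown in part by shScr (0.74), while ANKRD1 was at -0.67 and 0.16. Of 7 measured metallothioneins, which bind zinc and copper, 6 were above 0 in shAPC and all 7 below 0 in shScr, with medians of 0.19 and -0.26, but the shAPC median was -0.16 as a plain CPM ratio.

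Cell cycle genes lay near the median in shAPC and mostly above it in shScr. Of 23 measured G2 and mitosis genes 22 were within 2-fold, with medians of -0.12 in shAPC and 0.45 in shScr, and in 21 the shAPC ratio was below that of shScr. CDC20, an activator of the anaphase-promoting complex, was at 32.0 and 15 CPM, against 24.4 and 36.7. The called gene, TOP2A, was lower in both courses (ratios of -1.23 and -1.14). The share of thinned cells with more than 25 UMIs of the list, the 90th percentile of shScr day 3, was 11.9% (9.41% to 14.7%) at shAPC day 3, 5.23% (3.93% to 6.80%) at day 7 and 10.5% at shScr day 7. The last share covers 1036 shScr day 7 cells, since 1564 were too shallow. S phase genes had medians of -0.04 and 0.25. Among CDK inhibitors and p53 targets GADD45A and GADD45B were the called ones, while CDKN1A (p21) was at 639 and 649.6 CPM, against 516 and 539 in shScr, and CDKN2A (p16) at 455 and 270.5, against 385 and 416.

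The regulators that the study named from these libraries were all measured and none was called. CCDC85B had the highest ratio, 0.70 (0.65 to 0.74), at 215 and 275 CPM, against 196 and 244 in shScr. PTTG1 (securin) was at -0.04 in shAPC and 0.74 in shScr, at 79.1 and 60.8 CPM against 61.0 and 105. DNTTIP2 was the lowest at -0.77. Because the study chose this list on these libraries it is not independent of them.

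Changes that the controls shared formed a different group. Among the 19 lower genes shown in full were the Notch target HES1, at 41.8 and 6.57 CPM against 10.1 and 5.09, and the hormone STC1, at 194 and 44.8 against 95.5 and 26.0. SNHG25, a host of small nucleolar RNA, was at 897 and 249.9 CPM, against 876 and 115, and the heterochromatin protein CBX3 at 456 and 142, against 448 and 123. For SNHG25 and CBX3 the day 3 levels of shAPC and shScr were nearly equal. HNRNPL, RBMX, NMT1 and STAU2 were likewise lower by at least 2-fold in both courses, with shAPC ratios from -1.38 to -1.27.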

How the data were processed

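Single-cell libraries of HCEC 1CT cells (1 per group) were made by the authors on the 10x platform, and the deposited values are UMI counts per gene and barcode from Cell Ranger. Depth was 28451455 to 39797418 kept UMIs per library. Limits were 200 genes and 500 UMIs at the least, with mitochondrial UMIs below 5%, and doublets were not removed. Sums, CPM and 95% counting intervals (exact Poisson for CPM, exact conditional binomial for ratios, Clopper-Pearson for shares, normal for differences of ratios) were computed in Python 3.11.15 with numpy 2.4.6 and scipy 1.17.1. A 0 was set to 3 counts in ratios. Factors for alternative scalings came from edgeR 4.0.16 and DESeq2 1.42.0, without a test, since no group has replicates. The computation was tested on simulated data. Gene positions are from GENCODE 44.

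Members and lists were chosen with earlier results of these data known, and 3 of 39 lists were added after seeing the values. A rule chose the candidates for naming. It took all members of the Wnt, interferon, regulator and D cyclin lists. From each other list it took up to 4 members by level and 4 by size of ratio. It also took the 15 highest and 15 lowest genes, and the 10 in each direction that differed most from shScr. Not all candidates are described in the text. Of the 15 highest, RGCC (1.35), HIST1H4C (1.29), LAGE3 (1.29), PAPPA (1.26) and others are left out. Beside markers and genes at the threshold, IFNAR1, IRF3, IFI44L, PARP9, IFIT5, IFITM2, SAMD9, TAPBP, PHGDH, PSAT1, SHMT2, MTHFD2, CHAC1, SLC3A2, MMP3, RPLP0, RPL7, HMOX1, HES1, STC1, SNHG25, CBX3, HNRNPL, RBMX, NMT1 and STAU2 were named after their values were seen. Some genes of the lists are not reported here. Alternatives covered scaling, pseudocount, limits on CPM, cells and mitochondrial share, weighting of cells, thinning and the limit for a change shown by shScr.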

Additional observations from a re-analysis of the deposited data

Results flagged for a closer look

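In the 7 genes given here shAPC and shScr moved in opposite directions between day 3 and day 7, by at least 2-fold each. With 1 library per group the difference was not tested. The relative log2 ratio of shAPC minus that of shScr was -11.24 for IFNB1, where shScr day 3 had 0 UMIs and was set to 3 counts, so that the value is no estimate of size. It was -7.24 for ATF3, whose UMIs at shScr day 7 came from 72 of 2600 cells, -5.92 for CCL5 and -3.54 for DDIT3. It was -3.03 for the histone gene HIST1H2BJ, -2.90 for GADD45A and -2.65 for BIRC3.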

How the results depend on the processing

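No paired analysis was possible because each group holds 1 library. The main counts were 36 genes higher and 137 lower, of which 21 and 98 were not shown by shScr. As plain CPM ratios they were 6, 335, 1 and 255. With genes of at least 100 CPM they were 8, 42, 5 and 28 of 1138 genes, and with at least 5 CPM 102, 247, 70 and 186 of 9711. Higher genes not shown numbered 32 with a mitochondrial limit of 10%, 13 without the 5% of cells with the most UMIs, 12 with a limit of 0.25 for a change shown by shScr and 33 with a limit of 1. As a mean over cells of CPM, 74 genes were higher and 35 of them not shown. Without cells with an IFNB1 or ATF3 UMI, 84 genes were lower and 50 of them not shown. Under TMM factors, DESeq2 size factors, a pseudocount of 1 CPM, no mitochondrial limit, cells of at least 2000 genes, thinning to the smallest total and without shared barcodes all 4 counts stayed within 1.5 times. Higher genes were 20.8% of calls, 16.3% under TMM or DESeq2 factors, 1.76% as plain ratios and 32.6% as a mean over cells.

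Among genes called in shAPC the sign turned as a mean over cells of CPM for C1R (0.09), GDF15 (0.00) and LGALS3BP (0.22), and without cells with an IFNB1 or ATF3 UMI for FILIP1L (0.03), HIST1H2BJ (0.12), HIST3H2A (0.27) and THUMPD2 (0.03). Below 20 CPM, BAMBI turned to 0.40 in that last setting. The cause was not tested. With 1 library per group, variation between cultures is unknown, and ratios of genes with few UMIs, such as IFNB1 and APCDD1, carry wide counting intervals.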
